A study of Homo sapiens with 6 samples.

Results

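The human genome encodes synaptotagmins (SYT genes), synaptotagmin-like proteins (SYTL genes) and the related gene TC2N, and 10 of them were read here by NCBI Gene ID: SYT1, SYT7, SYT11, SYT12, SYT15, SYT16, SYTL1, SYTL2, SYTL3 and TC2N, out of 16623 genes listed. The cells were MDA-MB-231, a triple-negative breast cancer cell line, given the solvent DMSO or the histone deacetylase (HDAC) inhibitor PCI-24781 at 100 nM or 200 nM for 24 h or 48 h. Each of the 6 conditions had 1 library, so differences lack a replicate check and no significance test was made. The values are FPKM (fragments mapped to a gene, scaled by transcript length and library depth), so the levels of different genes can be compared per length. The question was how these genes, some of which the study used as markers of calcium signalling, stood in each PCI-24781 library against DMSO of the same time. By quantitative PCR (RT-qPCR), the study reported SYT1, SYT7, SYT12, SYTL2 and TC2N as downregulated after PCI-24781. From its RNA sequencing, it described a panel of calcium-binding genes that includes TC2N and SYT1 as mostly lower or unchanged. It also named SYTL2 among genes that differed between DMSO and 200 nM at 48 h. In the libraries read here, SYT1, SYT7, SYT12, SYTL2 and TC2N stood above DMSO of the same time in both 24 h PCI-24781 libraries and at 200 nM 48 h. At 100 nM 48 h, all of them but SYT12 stood below it. The RT-qPCR values were not read here.

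These proteins carry tandem C2 domains, which bind membrane phospholipids and, in some members, calcium ions. Classical synaptotagmins sit in vesicle membranes and couple a rise in calcium to vesicle fusion by acting on SNARE proteins, the proteins that draw membranes together. Synaptotagmin-like proteins instead hold an N-terminal domain that binds the small GTPase RAB27, which tethers secretory granules to the plasma membrane. The family is best known from neurons and endocrine cells, but several members also serve granule release and membrane repair in epithelial and blood cells.

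Most of the 10 genes were low in MDA-MB-231 cells, and their lowest level was found in the same library. In DMSO 24 h, 9 of the 10 genes had their lowest FPKM, the exception being SYT16, which was lowest at 100 nM 48 h. The share of all genes that were lowest in DMSO 24 h was not counted. DMSO 24 h also listed the most genes at 0 FPKM, 1708, against 1130 in the library with the fewest. Summed over the 10 genes, the 24 h libraries reached 8.16 FPKM with DMSO, 16.6 with 100 nM and 21.2 with 200 nM. The 48 h libraries reached 15.95 with DMSO, 11.7 with 100 nM and 21.5 with 200 nM. Thus both 24 h PCI-24781 libraries lay above their control, while at 48 h the 100 nM library lay below and the 200 nM library above it. In bulk RNA, a change in the share of cells that express a gene and a change in RNA per cell cannot be told apart.

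Depth, which was worked out from the spacing of low FPKM values, lay between 1.57e+07 and 1.8e+07 fragments in the 6 libraries. A floor of 3 fragments was set for each gene by its shortest listed transcript, and 2 of the 60 values, both of SYT7, were below it. The 95% intervals given with some levels are exact Poisson intervals on the fragments so inferred and cover counting error only. Such intervals of 2 levels can overlap while the counting interval of their ratio excludes 1. As a check of the cell line, VIM had an FPKM between 1629 and 2053, and of 5 genes listed as low in this line, ESR1 and PGR were at or below 0.04 and CDH1 at or below 0.39 in every library, while ERBB2 had between 13.2 and 21.4 and EPCAM between 2.26 and 4.7. The labels of the DMSO libraries differ only in time, yet of 11490 genes that reached 1 FPKM in at least 1 of them, 2.49% stood 2-fold or more higher, and 0.131% lower, in DMSO 48 h. The main 24 h differences are therefore also given against DMSO 48 h.

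**Figure D1:**
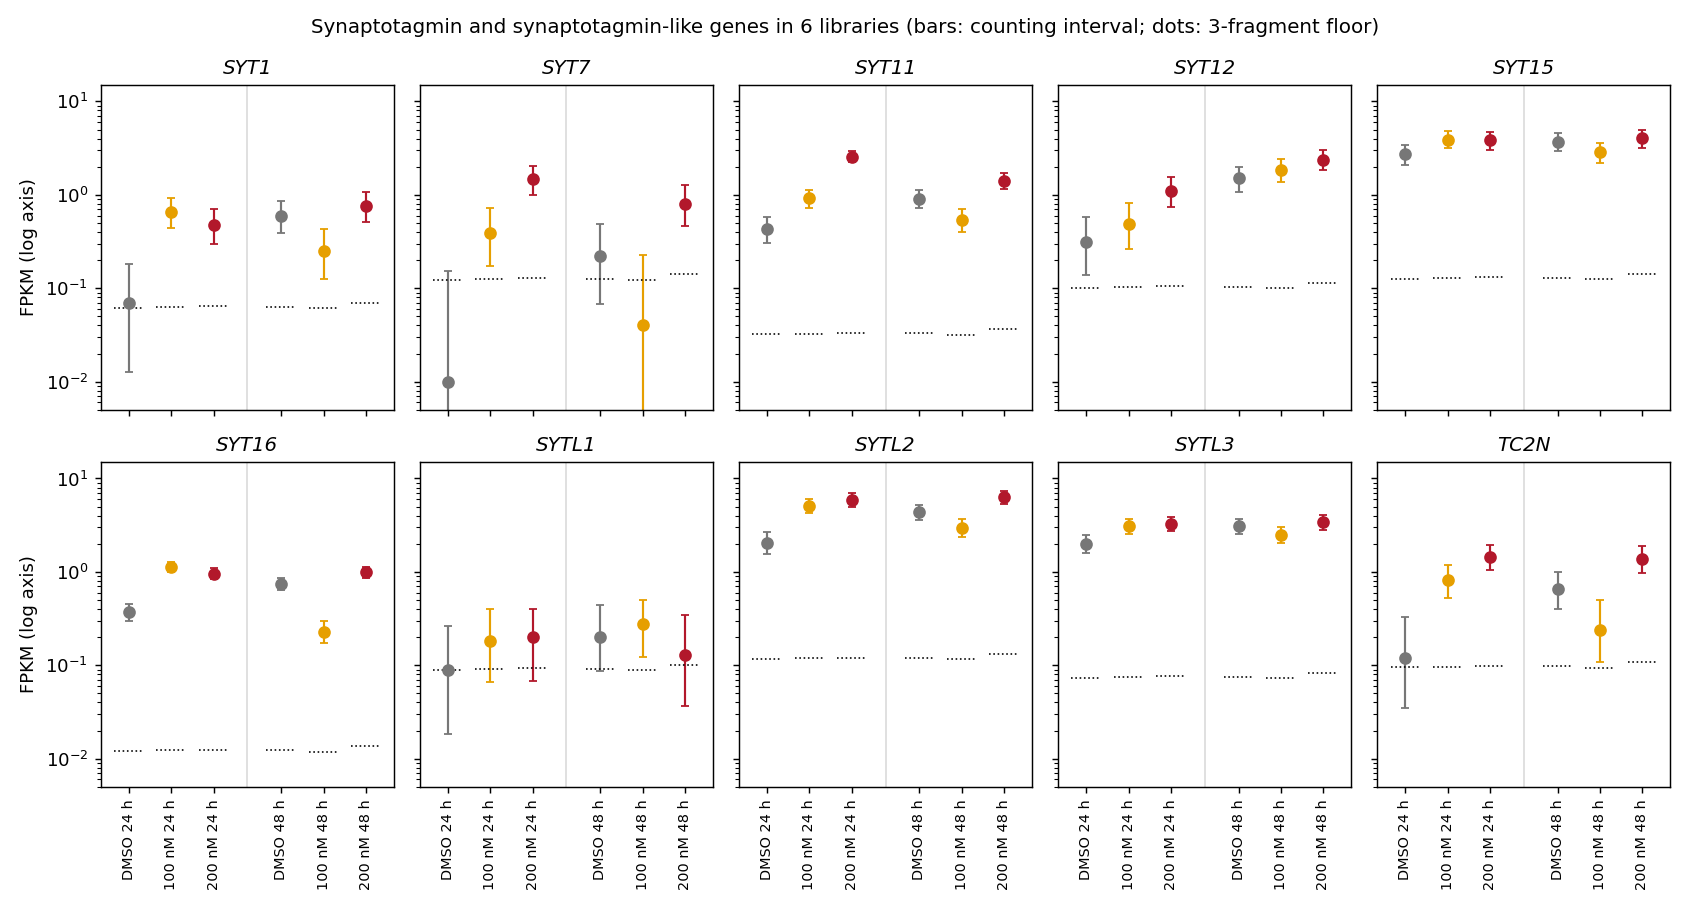
FPKM of the 10 genes in the 6 libraries, on a log axis shared by all panels; points are single libraries (grey DMSO, orange 100 nM, red 200 nM), bars are 95% Poisson intervals for counting error, and dotted lines are the floor of 3 fragments. The lower bars of SYT7 in DMSO 24 h and at 100 nM 48 h run below the axis. In 9 of the 10 panels the DMSO 24 h point is the lowest, and only SYT15, SYTL2 and SYTL3 stay at 1 FPKM or more in all 6 libraries.

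Sequence around the start of the gene was read where listed, and the windows of SYT11, TC2N, SYT1 and SYTL1 are printed. The promoter windows run from 250 bases before to 50 bases after the gene start (RefSeq, build GRCh38.p14), and 7 of the 10 genes have 1 or 2 such windows, 10 in all; none is shown for SYT7, SYT12 and SYTL2. SYT11 and TC2N were among the genes with the largest changes, and SYT1 had a large ratio from a low level. SYTL1 differed from most of them in its dose order at 48 h, on 10 fragments or fewer with overlapping intervals. Each is printed 5′ to 3′ on the gene's strand in lower case, with capitals for the GC box GGGCGG and the CCAAT box CCAAT on either strand.
SYT11, chr1:155859317-155859616, plus strand: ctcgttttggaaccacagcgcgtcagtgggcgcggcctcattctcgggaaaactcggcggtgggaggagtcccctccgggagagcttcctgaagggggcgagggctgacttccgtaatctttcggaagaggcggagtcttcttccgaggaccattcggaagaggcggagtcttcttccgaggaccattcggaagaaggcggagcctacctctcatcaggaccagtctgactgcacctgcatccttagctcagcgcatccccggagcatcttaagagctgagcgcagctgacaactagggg
TC2N, chr14:91836406-91836705, minus strand: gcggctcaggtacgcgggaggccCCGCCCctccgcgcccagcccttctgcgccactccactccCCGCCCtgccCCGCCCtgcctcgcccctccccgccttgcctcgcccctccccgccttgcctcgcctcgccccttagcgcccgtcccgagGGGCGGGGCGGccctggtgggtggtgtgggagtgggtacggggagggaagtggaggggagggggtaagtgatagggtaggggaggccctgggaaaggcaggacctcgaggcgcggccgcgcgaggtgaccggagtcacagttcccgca
TC2N, chr14:91867487-91867786, minus strand: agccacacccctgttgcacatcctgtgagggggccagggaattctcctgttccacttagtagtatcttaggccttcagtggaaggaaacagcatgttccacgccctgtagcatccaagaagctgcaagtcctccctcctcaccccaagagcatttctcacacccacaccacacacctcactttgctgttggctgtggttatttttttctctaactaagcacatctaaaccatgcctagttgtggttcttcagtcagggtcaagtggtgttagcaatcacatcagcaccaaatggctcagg
SYT1, chr12:78864524-78864823, plus strand: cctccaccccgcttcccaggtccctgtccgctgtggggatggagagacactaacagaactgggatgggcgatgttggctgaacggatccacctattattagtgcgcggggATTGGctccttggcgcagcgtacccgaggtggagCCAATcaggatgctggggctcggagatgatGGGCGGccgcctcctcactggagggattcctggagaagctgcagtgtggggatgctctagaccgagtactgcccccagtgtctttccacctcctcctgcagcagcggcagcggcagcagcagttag
SYTL1, chr1:27341772-27342071, plus strand: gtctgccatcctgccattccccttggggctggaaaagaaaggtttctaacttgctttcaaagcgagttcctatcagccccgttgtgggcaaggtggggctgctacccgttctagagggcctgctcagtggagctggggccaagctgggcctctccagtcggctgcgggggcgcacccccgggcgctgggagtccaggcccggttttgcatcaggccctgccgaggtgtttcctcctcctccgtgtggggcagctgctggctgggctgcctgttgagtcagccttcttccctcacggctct

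The windows had little in common. They held 22 CpG dinucleotides for SYT11, 15 for SYT1 and 12 for SYTL1, against a median of 14 over 35116 windows. The TC2N windows held 29 and 1, so a CpG-rich and a CpG-poor start are both annotated for this gene. GGGCGG occurred in 3 of the 10 windows of these genes (SYT1, SYT15 and the CpG-rich TC2N window), against 45.0% of all windows. CCAAT occurred in 2 (SYT1 and SYT16), against 34.6%. TGANTCA, the AP-1 site, occurred in 3 (SYT16, SYTL1 and SYTL3), against 7.71%, and TATAAA in 2 (SYT16 and SYTL3), against 11.5%. Both strands were searched for each motif. A match describes these letters only, and no binding was measured.

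At 24 h, all 10 genes were higher in each PCI-24781 library than in DMSO 24 h, but not all were higher than in DMSO 48 h. For differences of any size from DMSO 24 h, this compares with 51.7% of all 16623 genes higher at 100 nM and 53.5% at 200 nM. The median difference in log2(FPKM + 1) over the 10 genes was 0.46 at 100 nM and 0.60 at 200 nM, against 0.01 and 0.03 over all genes. With DMSO 48 h as the reference, the medians were 0.058 and 0.11. At 100 nM, 7 genes were then higher and SYT12, SYTL1 and SYTL3 lower, and at 200 nM, 7 were higher, SYT1 and SYT12 lower and SYTL1 equal. The pseudocount of 1 shrinks the changes of such low genes. At 100 nM, 4 of the 10 genes reached 1 FPKM in at least 1 of the libraries compared and 0 reached a 2-fold change, against 1.35% higher and 0.131% lower among all genes that passed the same filter. At 200 nM, 7 of the 10 genes passed the filter and 4 were at least 2-fold higher, namely SYT7, SYT11, SYTL2 and TC2N, against 4.49% of all genes that passed, while 0 were lower, against 1.48%. Of these, SYT7, SYT11 and TC2N passed the filter only through the 200 nM library. The number depends on the settings, since 1 gene (SYTL2) was left when both libraries had to reach 1 FPKM, and 1 (SYT7) when the 200 nM 24 h library was set against DMSO 48 h.

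**Figure D2:**
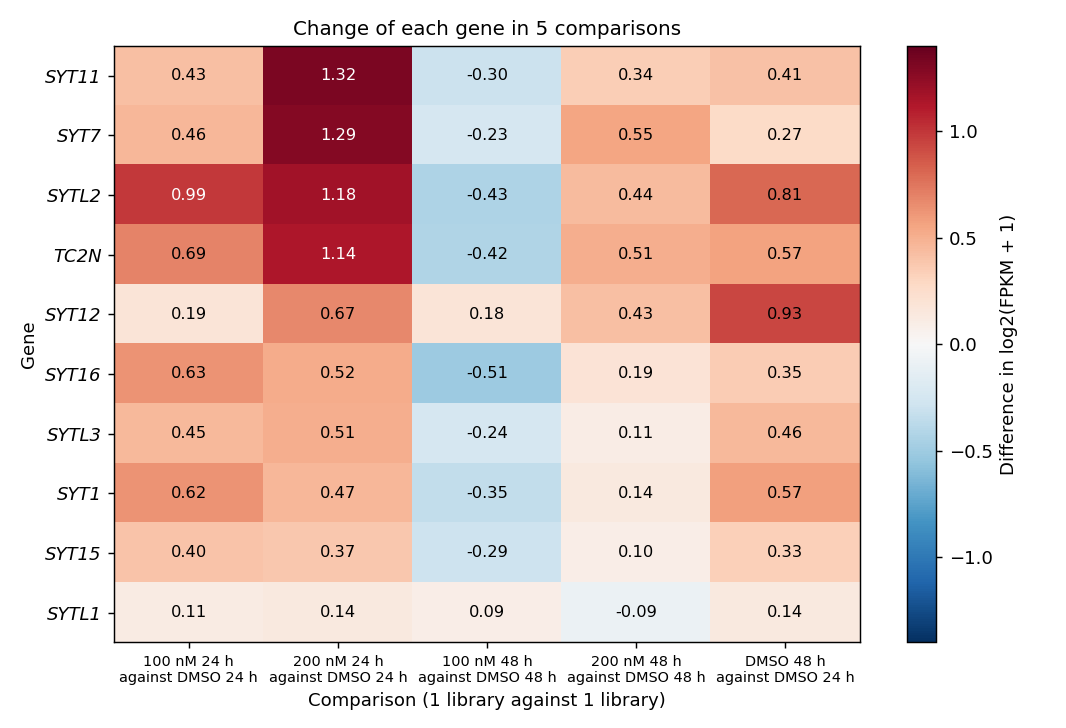
Difference in log2(FPKM + 1) for each gene (rows, ordered by the change at 200 nM 24 h) in the 4 comparisons with DMSO and between the DMSO libraries (columns); red is higher and blue lower than the reference. The columns for 24 h and for the DMSO libraries hold positive values throughout, and the column for 100 nM 48 h holds 8 negative values and positive ones for SYT12 and SYTL1.

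Among the calcium sensors, SYT1 and SYT7 were close to or below the floor in DMSO 24 h. Where 3 values are given for a time, they stand for DMSO, 100 nM and 200 nM. SYT1 (NCBI Gene ID 6857, chromosome 12, 79257773 to 79845788, as listed in the files, for which the submitters' notes name hg19) is the sensor of fast transmitter release. After 24 h its FPKM stood at 0.07 with DMSO, 0.65 with 100 nM and 0.48 with 200 nM; after 48 h it stood at 0.59, 0.25 and 0.75. DMSO 24 h stood below the other 5 libraries, and its interval, from 0.013 to 0.181, overlapped only that of 100 nM 48 h, from 0.127 to 0.428. The value of 0.07 corresponds to between 3 and 6 fragments, depending on the transcript. The ratio of 100 nM to DMSO at 24 h was 9.29, with a counting interval from 3.28 to 53.7, and that of 200 nM was 6.86, from 2.28 to 39.6. Relative to DMSO 48 h, these libraries had ratios of 1.10 and 0.814, so the direction at 200 nM turned. The ratios do not use the pseudocount, with which the differences were 0.62 and 0.47. The 3 libraries at 48 h lay in another order, with 100 nM lowest, at a ratio to DMSO of 0.424 with a counting interval from 0.192 to 0.841.

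SYT7 (NCBI Gene ID 9066, chromosome 11 from 61281188 to 61348344) is a slower calcium sensor that also acts in lysosome exocytosis and membrane repair. It had 0.01, 0.39 and 1.47 FPKM at 24 h, then 0.22, 0.04 and 0.79 at 48 h. The values in DMSO 24 h and at 100 nM 48 h correspond to 3 fragments or fewer and lay below the floors of 0.124 and 0.122. A level there was not detectable at this depth. Both 200 nM libraries stood above the other 4, and the intervals at 24 h, from 1.01 to 2.03 at 200 nM and from 0.173 to 0.717 at 100 nM, were apart. The interval of 200 nM 48 h, from 0.463 to 1.27, overlapped those of 100 nM 24 h and DMSO 48 h. The ratio of 200 nM 24 h to DMSO 24 h had a counting interval with a lower limit of 9.03 and no upper limit. Relative to DMSO 48 h, that library had a ratio of 6.68, and 100 nM 24 h had 1.77. At 48 h, the ratio of 200 nM to DMSO was 3.59, with an interval from 1.33 to 13.1. The ratio of 200 nM to 100 nM at 24 h was 3.77, from 1.81 to 9.11, and this comparison uses no DMSO library.

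The synaptotagmins that do not bind calcium in the classical way were SYT11, SYT12, SYT15 and SYT16. SYT11 (NCBI Gene ID 23208, chromosome 1 from 155829260 to 155854990) takes part in vesicle trafficking. It had 0.43 FPKM with DMSO, 0.92 with 100 nM and 2.57 with 200 nM at 24 h, then 0.90, 0.54 and 1.41 at 48 h. Its only listed transcript is 5240 bases long, so these levels rest on between 40 and 232 fragments, and the 3 intervals of each time did not overlap one another. Against DMSO, it differed by 0.43 and 1.32 at 24 h, then by -0.30 and 0.34 at 48 h. The step from 100 nM to 200 nM was 0.89 at 24 h and 0.65 at 48 h. The 24 h differences became 0.015 and 0.91 when DMSO 48 h was the reference. SYT11 stood highest at 200 nM at both times, and its single promoter window, printed above, holds neither a GC box nor a CCAAT box.

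SYT12 (NCBI Gene ID 91683, chromosome 11 from 66790190 to 66818334) was the only gene of the 10 that stood in the order DMSO, 100 nM, 200 nM at both times. Its FPKM was 0.31, 0.49 and 1.09 at 24 h, then 1.5, 1.84 and 2.36 at 48 h. Every 48 h library was above every 24 h library. The difference between the DMSO libraries, 0.93, was larger than any of its 4 differences from DMSO of the same time, which were 0.19 and 0.67 for the lower and higher dose at 24 h, then 0.18 and 0.43 for these doses at 48 h. Both 24 h doses lay below DMSO 48 h, by -0.75 and -0.26. Neighbouring doses of 1 time had overlapping intervals, so only DMSO and 200 nM at 24 h were apart, at 0.139 to 0.578 and 0.737 to 1.54. The counting interval of the ratio to DMSO lay above 1 for 200 nM at 24 h, from 1.66 to 8.51, and at 48 h, from 1.07 to 2.42. It included 1 for 100 nM at both times. The interval of the ratio of 200 nM to 100 nM ran from 1.16 to 4.58 at 24 h and included 1 at 48 h.

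SYT16 and SYT15 differed in how far they moved. SYT16 (NCBI Gene ID 83851, chromosome 14 from 62462541 to 62568427) lacks the membrane-spanning segment of other synaptotagmins. It had 0.37, 1.12 and 0.96 at 24 h, then 0.75, 0.23 and 1.0 at 48 h. Its transcript of 13978 bases gives between 58 and 274 fragments, and at both times each PCI-24781 library was apart from DMSO in its interval. At 100 nM the change was in opposite directions, 0.63 at 24 h and -0.51 at 48 h. With DMSO 48 h as the reference, the 24 h doses differed by 0.28 and 0.16. The lowest value, at 100 nM 48 h, had an interval from 0.175 to 0.298, just below that of DMSO 24 h, from 0.298 to 0.453. SYT15 (NCBI Gene ID 83849, chromosome 10 from 46955444 to 46970601) was among the higher genes, with 2.72, 3.90 and 3.82 at 24 h, then 3.69, 2.84 and 4.02 at 48 h. Its values stayed between 2.72 and 4.02, and its intervals overlapped in all 4 comparisons with DMSO. The counting interval of its ratio to DMSO lay just above 1 at 24 h, from 1.04 to 2.02 with 100 nM and from 1.01 to 1.97 with 200 nM. At 48 h, that interval included 1 at both doses. A near-identical copy, SYT15B, is annotated by RefSeq and was not analysed here, and SYT15-AS1 overlaps SYT15, so its level is uncertain.

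Of the synaptotagmin-like genes, SYTL2 was the highest and SYTL1 the lowest. SYTL2 (NCBI Gene ID 54843, chromosome 11 from 85405264 to 85522202) encodes Slp2, which docks granules through RAB27. Its FPKM was 2.06, 5.07 and 5.93 at 24 h, then 4.35, 2.97 and 6.26 at 48 h. DMSO 24 h and 100 nM 48 h were the low libraries, with intervals from 1.55 to 2.70 and from 2.34 to 3.71. The 100 nM 24 h value was 2.46 times that of DMSO 24 h, a difference of 0.99 that lay just under the 2-fold threshold on the log2(FPKM + 1) scale. Set against the 48 h control instead, the 24 h doses differed by 0.18 and 0.37. Against DMSO 48 h, the 100 nM interval overlapped and the 200 nM interval, from 5.29 to 7.40, did not overlap the control interval from 3.57 to 5.24. The ratio of 100 nM 48 h to DMSO 48 h had a counting interval from 0.503 to 0.923. Between 100 nM and 200 nM the change was 0.19 at 24 h, with overlapping intervals, and 0.87 at 48 h, with intervals apart.

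SYTL3 (NCBI Gene ID 94120, chromosome 6 from 159071046 to 159185908) followed the same order with smaller steps. It had 1.98, 3.07 and 3.24 at 24 h, then 3.09, 2.47 and 3.40 at 48 h. Its 24 h intervals were apart from DMSO at both doses, and its 48 h intervals overlapped DMSO at both. Compared with the 48 h control, its 24 h doses differed by -0.0071 and 0.052. SYTL1 (NCBI Gene ID 84958, chromosome 1 from 27668483 to 27680428), another RAB27 effector, had 0.09, 0.18 and 0.20 at 24 h, then 0.20, 0.28 and 0.13 at 48 h. These values rest on between 3 and 10 fragments, and all of its intervals overlapped. No difference in SYTL1 was detectable at this depth. It was the only gene of the 10 that stood below its control with 200 nM at 48 h, at -0.09 on the log2(FPKM + 1) scale.

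TC2N (NCBI Gene ID 123036, chromosome 14 from 92246095 to 92333880) encodes a protein with tandem C2 domains. It had 0.12, 0.81 and 1.46 at 24 h, then 0.66, 0.24 and 1.37 at 48 h. Both 200 nM libraries stood above the other 4 libraries. The interval of 200 nM 48 h, from 0.968 to 1.88, overlapped those of 100 nM 24 h and DMSO 48 h. The ratio of 200 nM 48 h to DMSO 48 h had a counting interval from 1.19 to 3.82. That of 200 nM to 100 nM at 24 h ran from 1.07 to 3.05. DMSO 24 h, with an interval from 0.035 to 0.325, was apart from both 24 h doses, whereas in the order 100 nM 48 h, DMSO 48 h and 100 nM 24 h each interval overlapped the next. The step from 100 nM to 200 nM was 0.44 at 24 h, with overlapping intervals, and 0.93 at 48 h, with intervals apart. Its 24 h doses differed from the 48 h control by 0.12 and 0.57. Which of its printed starts was used was not measured.

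At 48 h, the dose order of most genes differed from that at 24 h. At 24 h, 7 of the 10 genes stood in the order DMSO, 100 nM, 200 nM, and SYT1, SYT15 and SYT16 were highest at 100 nM. At 48 h, 8 genes were lowest at 100 nM, SYT12 kept the dose order, and SYTL1 was highest at 100 nM. The shares of all genes in each of these orders were not counted. With 1 library per condition, the labels of DMSO 48 h and 100 nM 48 h could not be checked against replicates. This bears on every value of both libraries, and so on each comparison that uses DMSO 48 h as a control. Counting changes of any size, 8 of the 10 genes stood below their control with 100 nM, against 50.7% of all genes, with a median of -0.30 against -0.01. At 200 nM 48 h, 9 of the 10 genes were higher, against 51.6%, with a median of 0.27 against 0.01. On the log2(FPKM + 1) scale, none of the 10 genes reached 2-fold in either 48 h comparison. Of all genes, 0.408% were called lower and 0.0608% higher at 100 nM, and 0.206% higher and 0.06% lower at 200 nM. Against DMSO 24 h in place of DMSO 48 h, the median at 100 nM 48 h was 0.18, so the direction of that comparison rests on which control is used.

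The DMSO libraries also differed in these genes. All 10 genes stood higher in the 48 h control than in the 24 h control, against 49.9% of all genes, with a median of 0.43 against 0.00. On the log2(FPKM + 1) scale, none reached 2-fold, where 2.49% of all genes did, and SYT12 and SYTL2 came closest at 0.93 and 0.81. Without the pseudocount, the ratio of DMSO 48 h to DMSO 24 h was 8.43 for SYT1, 5.5 for TC2N and 4.84 for SYT12. It ran down to 1.36 for SYT15, and SYT7 was below the floor in DMSO 24 h. The same DMSO 24 h library is the reference of both 24 h comparisons, so these values share its error. Between the doses, which share no DMSO library, 7 genes were higher at 200 nM than at 100 nM at 24 h, against 49.3% of all genes, and 9 at 48 h, against 53.6%. The medians were 0.13 and 0.57, against 0.00 and 0.02. On the log2(FPKM + 1) scale, none of the 10 genes reached 2-fold between the doses. Of all genes, 0.343% stood 2-fold higher and 0.18% lower after 24 h, while 1.71% stood higher and 0.291% lower after 48 h. Without the pseudocount, the 48 h ratio of 200 nM to 100 nM was 5.71 for TC2N, 4.35 for SYT16 and 0.464 for SYTL1.

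The rest of the family was mostly at the limit of detection. Of 13 other synaptotagmin and synaptotagmin-like genes, 11 were listed, and only SYTL4 and SYT17 reached an FPKM of 1. SYTL4, whose protein granuphilin acts on insulin granules, had 2.54, 3.37 and 3.33 at 24 h, then 3.25, 2.66 and 3.93 at 48 h, the order seen for SYTL2 at 48 h. SYT17 had 0.77, 1.32 and 1.11 at 24 h, then 2.06, 2.15 and 2.36 at 48 h, so that, as for SYT12, every 48 h library was above every 24 h library. SYT2 stayed between 0.19 and 0.50. At 24 h, 7 and 8 of the 11 genes were higher at 100 nM and 200 nM, against 51.7% and 53.5% of all genes. The medians were 0.04 and 0.05. Of all genes, between 0.0608% and 4.49% were called higher in the 4 comparisons with DMSO, and between 0.06% and 1.48% lower. Of the 11, only 2 passed the filter in each, and none reached 2-fold on the log2(FPKM + 1) scale. Most of these genes are near 0 FPKM, where the pseudocount keeps differences near 0. Among genes with 1 FPKM or more in a compared library, a filter that favours genes that differ, the medians at 200 nM 24 h were 0.27 over 2 of these genes, 0.48 over 9 other C2 effectors and 1.14 over 7 of the 10 genes.

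**Figure D3:**
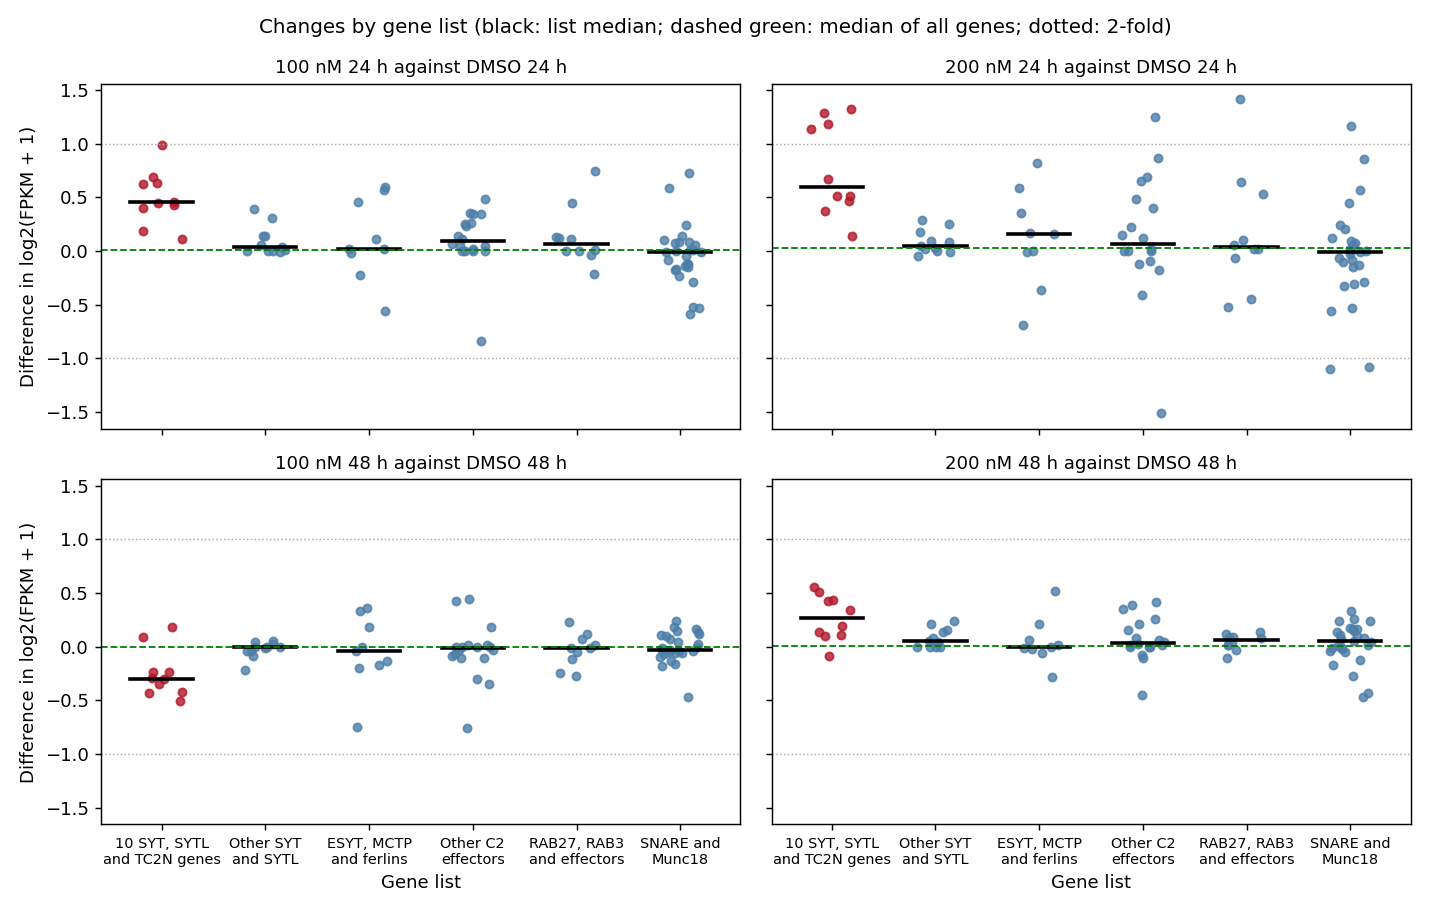
Difference in log2(FPKM + 1) from DMSO of the same time for the 10 genes (red) and 5 lists of related genes (blue), 1 point per gene; black bars are list medians, dashed green lines the median of all genes and dotted lines a 2-fold change. The median of the 10 genes at 200 nM 24 h is 0.60, and those of the 5 other lists, which include genes near 0 FPKM, lie between -0.01 and 0.16.

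Genes of related C2 proteins and of exocytosis did not share 1 direction. Among extended synaptotagmins, MCTPs and ferlins, 9 of 10 were listed. Of these, 6 were higher with 100 nM and 5 with 200 nM at 24 h, against 51.7% and 53.5% of all genes. In each of the 4 comparisons with DMSO, 7 passed the filter and none was called. Shares of all genes called there ran from 0.0608% to 4.49% higher and from 0.06% to 1.48% lower. ESYT1, a tether between endoplasmic reticulum and plasma membrane, was highest in DMSO 24 h, with 56.6, 38.0 and 34.7 at 24 h, then 38.2, 48.6 and 31.3 at 48 h. ESYT2 had between 36.4 and 51.1, and the ferlin gene MYOF between 105 and 141. Among other C2 effectors of exocytosis, 18 of 19 were listed, and 9 passed the filter at 200 nM 24 h. Of these, BAIAP3 was called higher, against 4.49% of all genes, and UNC13D lower, against 1.48%. UNC13D, which encodes the granule priming factor Munc13-4, had 38.4, 21.1 and 12.9 at 24 h, then 28.9, 39.05 and 20.9 at 48 h, and was the most abundant gene of its list. It stood in the reverse order of SYTL2 at both times. RPH3AL had between 16.8 and 29.04 and RIMS2 between 5.02 and 19.1.

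The RAB27 genes, whose products bind the synaptotagmin-like proteins, stood in the reverse order of SYTL2 at 24 h, and only RAB27B followed its order at 48 h. RAB27A had 10.55, 8.96 and 7.04 at 24 h, then 12.38, 13.08 and 13.25 at 48 h, above every level of SYTL1, SYTL2 and SYTL3. RAB27B had 5.01, 4.86 and 3.42 at 24 h, then 8.85, 7.31 and 9.48 at 48 h. Both were lowest at 200 nM 24 h, where SYTL2 was near its highest, with differences from DMSO of -0.52 and -0.44. At 48 h RAB27B stood in the order of SYTL2, with 100 nM lowest and 200 nM highest. Of the 10 RAB27, RAB3 and effector genes, 7 were higher at 200 nM 24 h, against 53.5% of all genes, and of the 7 that passed the filter RAB3A was called higher, against 4.49%. RAB3A, a GTPase of synaptic vesicles, had 2.03, 4.09 and 7.07 at 24 h and between 5.71 and 5.84 in the 3 libraries at 48 h, and it was also called between the DMSO libraries, by 1.17. MLPH, an effector that links RAB27A to myosin on melanosomes, had between 21.4 and 30.5.

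The SNARE and Munc18 genes, the fusion machinery on which synaptotagmins act, were all listed, 27 of 27. At 200 nM 24 h, 12 were higher and 14 lower, against 53.5% of all genes higher. Of the 23 that passed the filter, STX11 was called higher, against 4.49% of all genes, and VAMP8 and STXBP2 lower, against 1.48%. VAMP8, a vesicle SNARE of granules and endosomes, had 58.8, 38.7 and 27.3 at 24 h, then 57.4, 64.3 and 42.4 at 48 h. STXBP2, which encodes the Munc18-2 partner of syntaxin 11, had 7.04, 4.57 and 2.74 at 24 h, then 8.60, 10.3 and 5.95 at 48 h. STX11 itself had 0.38, 1.29 and 2.10 at 24 h, then 1.31, 0.67 and 1.28 at 48 h. NAPA and VAMP3, with VAMP8 the most abundant of the list, differed from DMSO by between -0.13 and 0.20 in the 4 comparisons. BAIAP3, RAB3A, STX11 and STXBP2 are named because they passed 2-fold, after their values were seen.

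Markers of neurons, the cells in which SYT1 is best known, partly moved with these genes. Of 10 listed markers, 8 were found, and their summed FPKM was 0.91, 2.88 and 8.68 at 24 h, then 2.86, 1.41 and 6.98 at 48 h, between 0.91 and 8.68 over the 6 libraries. Nearly all of this came from SYP, between 0.65 and 6.40, and MAP2, between 0.11 and 3.99. The defining markers STMN2, DCX, ELAVL3 and ELAVL4 were at or below 0.06 in every library, and RBFOX3 was at or below 0.10. SNAP25, the neuronal partner of SYT1, was between 0.08 and 0.19. Of 5 blood markers, 4 were found, with sums between 1.09 and 2.58. The part of other cells in the values was not tested.

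For the 8 genes that reached an FPKM of 1, the most alike patterns over the 6 libraries were sought among 11893 genes. Pearson's r of log2(FPKM + 1) is given as a description, and the highest r was picked from all these genes over only 6 libraries. TC2N was most like DKK3, a secreted modulator of Wnt signalling, at an r of 0.9998, followed by SERPINE2 and FRMD4A. DKK3 had 0.42, 2.37 and 4.93 at 24 h, then 1.82, 0.70 and 4.43 at 48 h. SYT15 was most like CDA, which encodes cytidine deaminase and had 15.9, 67.7 and 67.7 at 24 h, then 54.7, 18.9 and 83.9 at 48 h, a far wider range than that of SYT15. SYT7 was most like TRIM66, SYT11 like HYKK, SYT12 like STK16, SYT16 like APC, SYTL2 like FAM184A and SYTL3 like SDR16C5, with r between 0.995 and 0.999. The genes nearest to SYT12, namely STK16, TPP1 and PPP1R3B, all stood in the order DMSO, 100 nM, 200 nM within each time. They were picked for their likeness to SYT12, so the shared order follows from that choice.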

How the data were processed

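RNA of MDA-MB-231 cells was sequenced in 6 libraries, 1 per condition. For every gene the authors deposited an FPKM value with 2 decimals. The submitters' processing notes name Bowtie2, RSEM and hg19, without versions. The authors' filter is not given in the sources used here. NCBI Gene IDs were matched to symbols in the RefSeq table of GRCh38.p14, which held 16585 of 16623 genes. The 10 genes, the lists and the rule for naming (the 3 most abundant genes of each list and genes called in 2 or more of the 4 comparisons with DMSO of the same time, of which there were 0) were chosen with earlier results of these data known.

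Changes were calculated as log2(FPKM + 1) against DMSO of the same time. Calls required a 2-fold change and 1 FPKM or more in at least 1 of the libraries compared. No p-value was calculated. Depth was inferred from steps between FPKM values below 0.5 of genes with 1 transcript of 500 to 1500 bases from GENCODE release 29 (224 to 270 genes for each library). This depth is approximate, as are fragment numbers, which were taken from the shortest listed transcript unless stated. Ratio intervals are 95% exact (Clopper-Pearson) intervals on these fragments. Calls and depth were checked on simulated data. Alternatives were other pseudocounts, filters, rescaling, thresholds and control libraries. Python 3.11.15, numpy 2.4.6, pandas 2.3.3, scipy 1.17.1 and matplotlib 3.10.9 were used.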

Additional observations from a re-analysis of the deposited data

Results flagged for a closer look

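At 100 nM, 8 of the 10 genes were higher than DMSO at 24 h and lower than DMSO at 48 h, and this difference between the times was not tested, since each condition had 1 library. On the log2(FPKM + 1) scale, the differences at 24 h and 48 h were 0.62 and -0.35 for SYT1, 0.46 and -0.23 for SYT7, and 0.43 and -0.30 for SYT11. They were 0.40 and -0.29 for SYT15 and 0.63 and -0.51 for SYT16. They were 0.99 and -0.43 for SYTL2, 0.45 and -0.24 for SYTL3, and 0.69 and -0.42 for TC2N. The 95% counting intervals of the levels were apart from DMSO at both times for SYT11 and SYT16, and the intervals of the ratio to DMSO lay on opposite sides of 1 for these genes and for SYT1, SYTL2 and TC2N. At 200 nM, SYTL1 was the only gene with opposite directions, 0.14 at 24 h and -0.087 at 48 h, and its intervals overlapped at both times.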

How the results depend on the processing

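Each value rests on 1 library, so the spread between cultures is unknown and leaving out a replicate was not possible. No paired analysis was possible because a condition holds 1 library only. Counts are compared within 1.5 times and medians within 0.1. Values are given for 100 nM and 200 nM at 24 h, then for the same doses at 48 h. The medians were 1.10, 1.51, -0.59 and 0.44 with a pseudocount of 0.1, 1.19, 1.65, -0.64 and 0.47 with 0.01, and 0.78, 0.97, -0.46 and 0.39 on TPM. At 100 nM 24 h, the number called higher became 2 with either pseudocount (all genes 3.35% and 3.68%), 3 on TPM (2.68%) and 2 at 1.5-fold (5.58%), and at 200 nM 48 h it became 1 with the pseudocount of 0.01 (1.08%). At 200 nM 24 h it was 1 when both libraries had to reach an FPKM of 1 (2.95%). Against the mean of both DMSO libraries, the medians were 0.27, 0.30, -0.095 and 0.46, and 2 genes were called higher at 200 nM 24 h (1.61%). Against DMSO of the other time, an alternative chosen after seeing the data, the medians were 0.058, 0.11, 0.18 and 0.73. The numbers called higher at 200 nM 24 h, 100 nM 48 h and 200 nM 48 h were then 1, 1 and 3, against 0.863%, 1.62% and 4.7% of all genes. Dropping the filter on low values or rescaling by median-of-ratios factors kept these counts and medians within the limits. The causes were not tested.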

Other observations

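DYSF, which encodes the membrane repair protein dysferlin and carries several C2 domains, was chosen after its values were seen. Its FPKM was 3.20, 5.22 and 6.41 in DMSO, 100 nM and 200 nM at 24 h and 6.12, 3.24 and 9.24 at 48 h, with DMSO 24 h lowest, as for 9 of the 10 genes. It was the only gene among the 5 lists called between the doses at 48 h, at 1.27 higher on the log2(FPKM + 1) scale at 200 nM, where 1.71% of all genes were called higher.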
